A study of Homo sapiens with 2 samples.

Results

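PCK1 encodes the cytosolic phosphoenolpyruvate carboxykinase, an enzyme that commits carbon to gluconeogenesis, and it was examined here together with 8 other genes of the same route in PLC8024 hepatocellular carcinoma cells. The 9 genes are PCK1, PCK2, PC, FBP1, G6PC3, SLC37A4, PPARGC1A, FOXO1 and TAT. Their members on the array are all probe sets whose platform annotation gives 1 symbol equal to one of these names, which found 16 of 41091 probe sets with a single symbol, for 9 of 19775 genes. PCK1 was selected on its log2 difference between these arrays, as one of the few transcripts higher with miR-130b, so that value is a description and supports nothing further. The other 8 genes were chosen for their function, with the values of these arrays already known.

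Gluconeogenesis makes glucose from lactate, amino acids and glycerol, and in the body it runs mainly in hepatocytes and in the proximal tubule of the kidney. Pyruvate carboxylase makes oxaloacetate in mitochondria, the carboxykinases turn oxaloacetate into phosphoenolpyruvate, fructose-bisphosphatase and glucose-6-phosphatase reverse the committed steps of glycolysis, and the remaining steps use enzymes shared with glycolysis. Transcription of PCK1 is raised by glucagon through cAMP and CREB and by glucocorticoids, with the coactivator PPARGC1A and the factor FOXO1, and is lowered by insulin.

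The series holds 2 arrays of total RNA. One is from PLC8024 cells sorted as CD133- and carrying an empty lentiviral vector, and the other from PLC8024 cells sorted as CD133- and carrying lentiviral miR-130b (the source label of that sample says transfection). Both groups share the cell line, the CD133- sort and a lentiviral transduction, per the labels' treatment protocol, and differ by the microRNA. Each group is 1 array, so no value has a replicate error, no p-value was computed, and every difference is one between these arrays. The number of arrays limits the precision.

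The microRNA in the vector pairs with targets mainly through its seed, bases 2 to 8. Mature sequences from RefSeq (GRCh38.p14) are shown to make clear what the cells were given, beside some microRNAs that share its seed. The labels do not say which arm the vector yields. The 3p arm lies at chr22:21653354-21653375 and the 5p arm at chr22:21653316-21653336, both on the plus strand. Capitals mark the seed.
hsa-miR-130b-3p: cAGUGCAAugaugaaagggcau
hsa-miR-130b-5p: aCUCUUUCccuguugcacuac
hsa-miR-301b-3p: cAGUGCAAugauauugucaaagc
hsa-miR-301a-3p: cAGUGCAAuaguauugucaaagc
hsa-miR-454-3p: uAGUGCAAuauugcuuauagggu
The seed AGUGCAA of the 3p arm was found in 6 mature microRNAs of the RefSeq set used, 4 of which are printed here. In that set the seed of the 5p arm was found only in that arm. The set may not hold every human microRNA, so a microRNA missing here may still share either seed. No target sites were searched in the gluconeogenic transcripts, whose 3' regions were not used here.

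Values are the deposited RMA values on the log2 scale, and a difference is miR-130b minus empty vector. A probe set counted as measured when its brighter array reached 4.88, the midpoint of all values outside the controls, which served as the floor. Each gene took the values of whichever measured probe set was brightest on average. All 9 genes had a measured probe set, and 12 of the 16 probe sets were measured. The only error available is technical. When probe sets of the same gene were set against each other, in the 6047 genes where 2 or more were measured, their differences had a pooled SD of 0.202. Variation between cultures is not part of it. A difference of 1.5-fold (0.58 on the log2 scale) was used as a rule of size.

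The cells carried hepatocyte transcripts. Of 10 hepatocyte markers, 9 were on the array with a single symbol and all 9 were at or above the floor in both arrays, with a median of 13.2 with the empty vector and 13.0 with miR-130b. Their summed level on the linear scale was 69949.9 and 64484.8. TTR, the thyroxine carrier, had a log2 difference of -3.34 and AFP, alpha-fetoprotein, of -0.57. ALB, serum albumin, had -1.03 in the brightest of 3 measured probe sets and went down to -2.38. APOA1, an apolipoprotein, ran from -0.51 in its brightest to 0.11 in another, so its sign depends on the probe set, while SERPINA1, alpha-1-antitrypsin, and TF, transferrin, differed by 0.08 and 0.03. PROM1, which encodes CD133, stood above the floor in both arrays, at 9.19 with the empty vector and 6.07 with miR-130b, although both samples are labelled CD133-. The signal ratio of the 3' to the 5' control probe set of ACTB was 1.95 with the empty vector and 2.41 with miR-130b, and that of GAPDH was 1.37 and 1.52. Of 27 probe sets for poly-A spike-ins, transcripts added to the RNA, 26 were lower with miR-130b, with a median difference of -0.24. The part of these differences in the results below was not tested. In such bulk RNA, fewer cells of a type and less RNA per cell cannot be told apart.

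PCK1 had 1 probe set. It read 7.06 with the empty vector and 7.87 with miR-130b, both above the floor. The miR-130b value was the higher one by 0.81 on the log2 scale, which is 1.75-fold, or 4.01 times the pooled SD between probe sets of a gene. The suffix _s_at marks a probe set whose probes can match more than 1 transcript, and no further PCK1 probe set was there to compare. Among 13260 measured genes, 4 had a larger increase. Genes at least 1.5-fold higher made up 0.294% of all measured genes and genes at least 1.5-fold lower made up 2.68%. PCK1 was the only one of the 9 genes beyond 1.5-fold, with 1 higher and 0 lower. At the same brightness, within 0.5 of the PCK1 mean on the log2 scale, 9 of 2361 genes were at least 1.5-fold higher, PCK1 included, 54 were at least 1.5-fold lower, and 90% of the differences lay between -0.36 and 0.35.

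**Figure D1:**
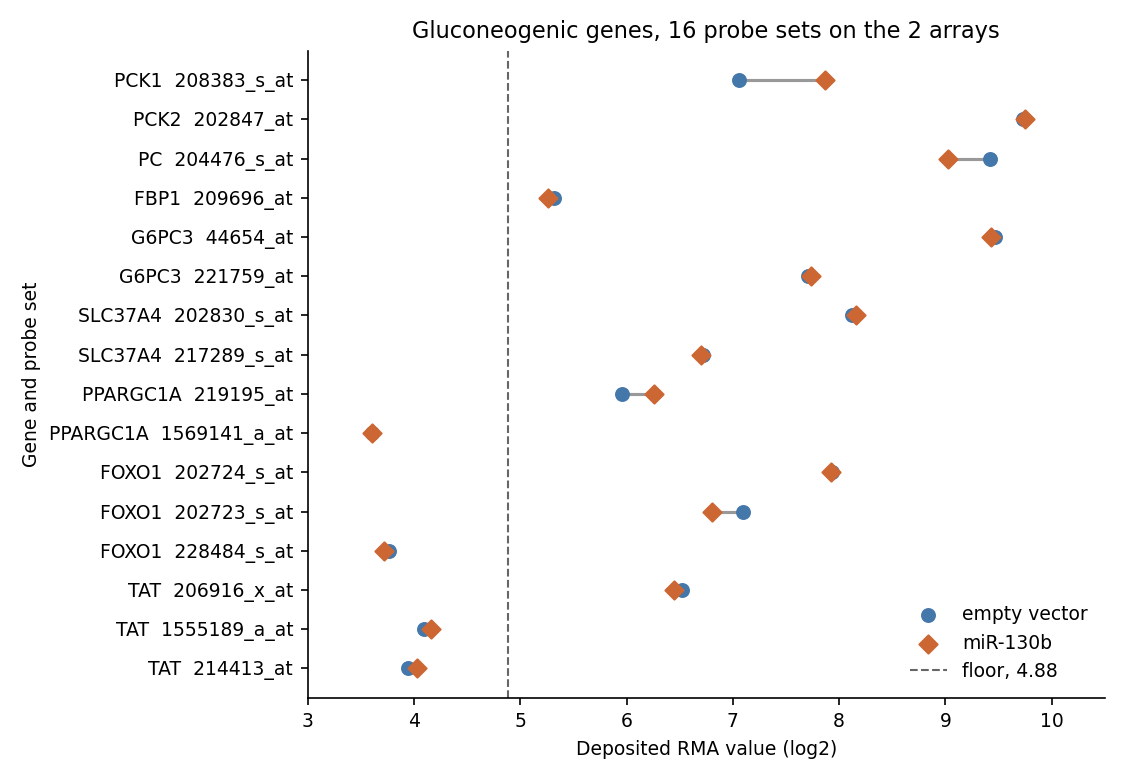
Deposited RMA values (log2, horizontal axis) of the 16 probe sets of the 9 genes, with a circle for the empty vector array and a diamond for the miR-130b array, joined by a line, and the floor of 4.88 dashed. PCK1 has the longest line, from 7.06 to 7.87, PC runs the other way from 9.42 to 9.03, and 4 probe sets lie below the floor in both arrays.

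PCK2 encodes the mitochondrial carboxykinase, which catalyses the same reaction as PCK1 from another gene. Its probe set read 9.73 with the empty vector and 9.75 with miR-130b, a difference of 0.02. The paired enzymes had unlike values on these arrays, 0.81 against 0.02. PCK1 was picked for its rise, so this contrast follows in part from that choice and supports nothing about the pair. Whether they differ beyond the spread between cultures was not tested, since there is 1 culture of each kind.

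PC, pyruvate carboxylase, makes the oxaloacetate that both carboxykinases use. It read 9.42 with the empty vector and 9.03 with miR-130b, so it was 1.31-fold lower, a difference of -0.39 or -1.93 times the pooled SD. This was the lowest value of the 9 genes, opposite in sign to that of PCK1, and it stayed inside 1.5-fold. It also rests on 1 probe set with the suffix _s_at.

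FBP1, fructose-1,6-bisphosphatase, removes a phosphate on the way to glucose-6-phosphate. It read 5.31 with the empty vector and 5.26 with miR-130b, both close to the floor, where the background left in RMA values compresses folds. The difference was -0.05, within the pooled SD of 0.202.

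The last step, release of glucose from glucose-6-phosphate in the endoplasmic reticulum, is represented by the transporter gene SLC37A4 and by G6PC3, the widely expressed catalytic subunit. The brighter SLC37A4 probe set read 8.12 with the empty vector and 8.16 with miR-130b, and the dimmer one 6.72 and 6.71. G6PC3 read 9.46 and 9.43 in one probe set and 7.71 and 7.73 in the other. All 4 differences lay between -0.04 and 0.04, and in each gene 1 probe set was higher and 1 lower. The liver catalytic subunit G6PC1, its islet relative G6PC2 and the muscle fructose-bisphosphatase FBP2 were below the floor in both arrays. G6PC1 read 4.48 with the empty vector and 4.81 with miR-130b in its brighter probe set and 3.32 and 3.43 in the other. G6PC2 read 4.71 and 4.77, and FBP2 4.40 in both arrays.

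TAT, tyrosine aminotransferase, starts tyrosine breakdown and so supplies carbon to the route. Its brightest probe set, with the suffix _x_at for possible cross-hybridisation, read 6.52 with the empty vector and 6.45 with miR-130b. The other TAT probe sets lay below the floor, at 4.09 and 4.16 in one and at 3.94 and 4.03 in the other. The differences of -0.07, 0.07 and 0.09 are all within the pooled SD, and the probe sets did not share a sign. The level of TAT in these cells thus rests on the _x_at probe set alone.

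FOXO1 encodes the forkhead factor that insulin signalling removes from the nucleus. Its brightest probe set read 7.93 in both arrays, with a difference of -0.01. A dimmer measured one read 7.10 with the empty vector and 6.81 with miR-130b, a difference of -0.29, and the one below the floor read 3.77 and 3.71. All 3 were lower by value, and the measured ones were 0.29 apart, so the size depends on the probe set.

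PPARGC1A encodes the coactivator PGC-1alpha, which raises PCK1 transcription in fasted liver. Its measured probe set read 5.95 with the empty vector and 6.25 with miR-130b, which is 1.23-fold higher, a difference of 0.30 or 1.49 times the pooled SD. It was the second highest of the 9 genes and stayed inside 1.5-fold. Its other probe set was below the floor, at 3.61 and 3.60, with a difference of 0.00.

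Across the 9 genes the differences ran from -0.39 for PC to 0.81 for PCK1. The median was -0.01 against 0.03 for all measured genes, with 4 genes above 0 and 5 below. For 6 of the 9 the difference was within 0.1 in either direction, against 42.8% of all measured genes, and for the same number it was within the pooled SD, against 72.0%. By probe set, 1 of 16 was at least 1.5-fold higher, against 0.241% of all probe sets with a single symbol, and 0 of 16 at least 1.5-fold lower, against 1.83%. The higher one is that of PCK1, which was picked for its rise, so its share was set by the selection. Without PCK1 the median of the other 8 was -0.02 and none passed 1.5-fold.

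**Figure D2:**
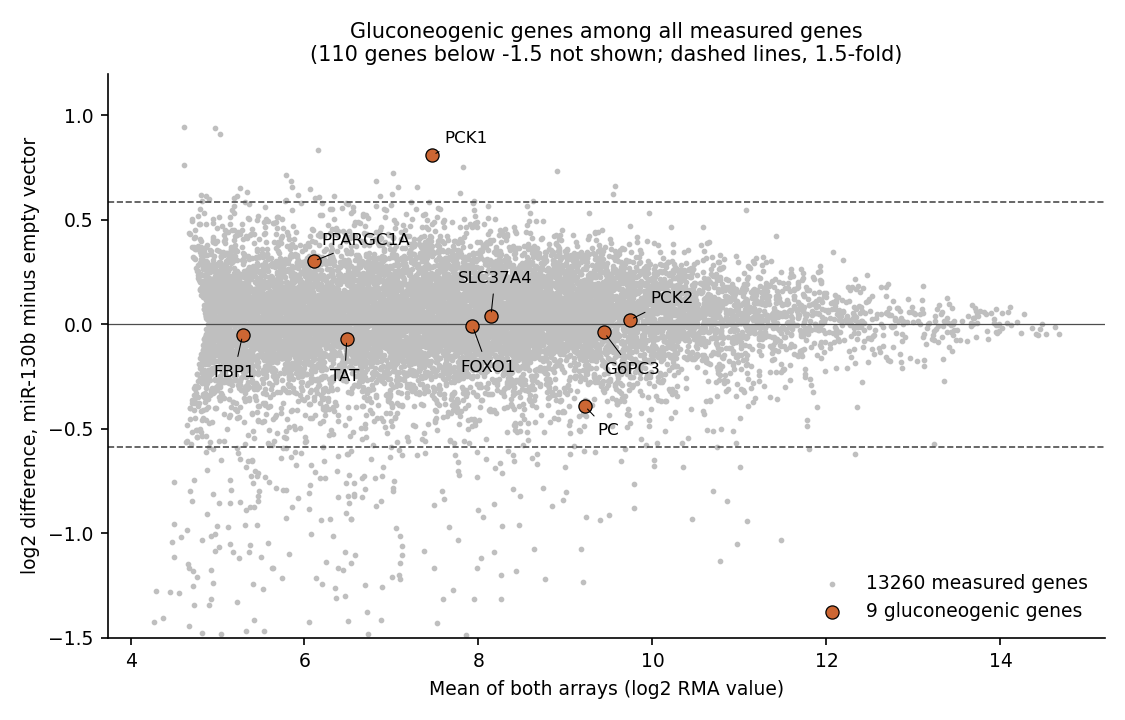
Log2 difference, miR-130b minus empty vector (vertical axis), against the mean log2 value of both arrays (horizontal axis), for 13260 measured genes in grey and the 9 gluconeogenic genes in orange, with 1.5-fold dashed and 110 genes below -1.5 left out. PCK1 lies at 0.81 above the upper line, PC at -0.39 and PPARGC1A at 0.30 lie inside the lines, and the other 6 lie within 0.1 of 0.

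By Euclidean distance over both array values, the measured genes nearest to PCK1 were ZNF711 at 0.17, RPS16P5 at 0.21, GKAP1 at 0.22 and, both at 0.23, ZNF204P and PSMD6-AS2. This likeness is over 2 arrays only and reflects both a like probe set brightness and a like difference. The distance uses the same 2 values by which PCK1 was picked, so high differences in its neighbours follow from that choice and support nothing further. Their log2 differences, from 0.49 for PSMD6-AS2 to 0.58 for ZNF711, were below that of PCK1. RPS16P5 and ZNF204P are pseudogenes, whose probes may also read their parent genes. None of the other 8 gluconeogenic genes was among these 5.

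The promoters of the members beside PCK1 with the largest differences, PC and PPARGC1A, are shown because CREB is a known regulator of gluconeogenic genes and their windows held its core letters TGACG. RefSeq windows of 300 bases (250 before to 50 after a start site, GRCh38.p14) were used for 7 of the 9 genes and for G6PC1, 14 windows in all. The promoters of PCK1 and TAT were not searched, so nothing is said here of the letters they hold. TGACG or its reverse complement CGTCA was searched on both strands and was present in 2 of the 14 windows, against 24.6% of 35116 windows of all genes. The full palindrome TGACGTCA, which contains this core, was in 0 of the 14 against 1.85%, and the forkhead letters GTAAACA (reverse complement TGTTTAC) were in 0 of the 14 against 3.42%. A match is a description of the letters, not a site of binding. Capitals mark TGACG. In PPARGC1A it begins 119 bases before the start site, in the upstream one of 2 windows, on chr4:24472856-24473155, minus strand. In PC it begins 186, 160 and 111 bases before the start site, in 1 of 3 windows, on chr11:66958334-66958633, minus strand.
PPARGC1A: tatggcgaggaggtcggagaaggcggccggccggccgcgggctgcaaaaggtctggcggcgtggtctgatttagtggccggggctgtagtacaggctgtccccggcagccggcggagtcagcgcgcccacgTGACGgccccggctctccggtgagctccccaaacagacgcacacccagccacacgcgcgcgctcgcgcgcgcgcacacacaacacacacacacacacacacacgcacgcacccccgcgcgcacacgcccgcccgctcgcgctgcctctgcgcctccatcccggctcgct
PC: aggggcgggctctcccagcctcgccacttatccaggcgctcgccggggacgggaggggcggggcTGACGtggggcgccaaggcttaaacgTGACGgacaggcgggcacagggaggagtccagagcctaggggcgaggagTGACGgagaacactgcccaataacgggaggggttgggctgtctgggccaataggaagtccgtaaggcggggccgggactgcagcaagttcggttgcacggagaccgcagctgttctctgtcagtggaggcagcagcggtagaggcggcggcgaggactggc
The differences were 0.30 for PPARGC1A and -0.39 for PC. Both genes were picked with these values known, so their signs say nothing about the letters.

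Beyond the 9 genes, 11 lists of the surrounding pathway held 179 further genes, of which 151 were measured. At least 1.5-fold higher was 1 of them, or 0.662% against 0.294% of all measured genes, and at least 1.5-fold lower were 3, or 1.99% against 2.68%. Their median difference was 0.04. The gene above was NR4A3 and those below were NR2F1, SGK1 and MT2A.

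**Figure D3:**
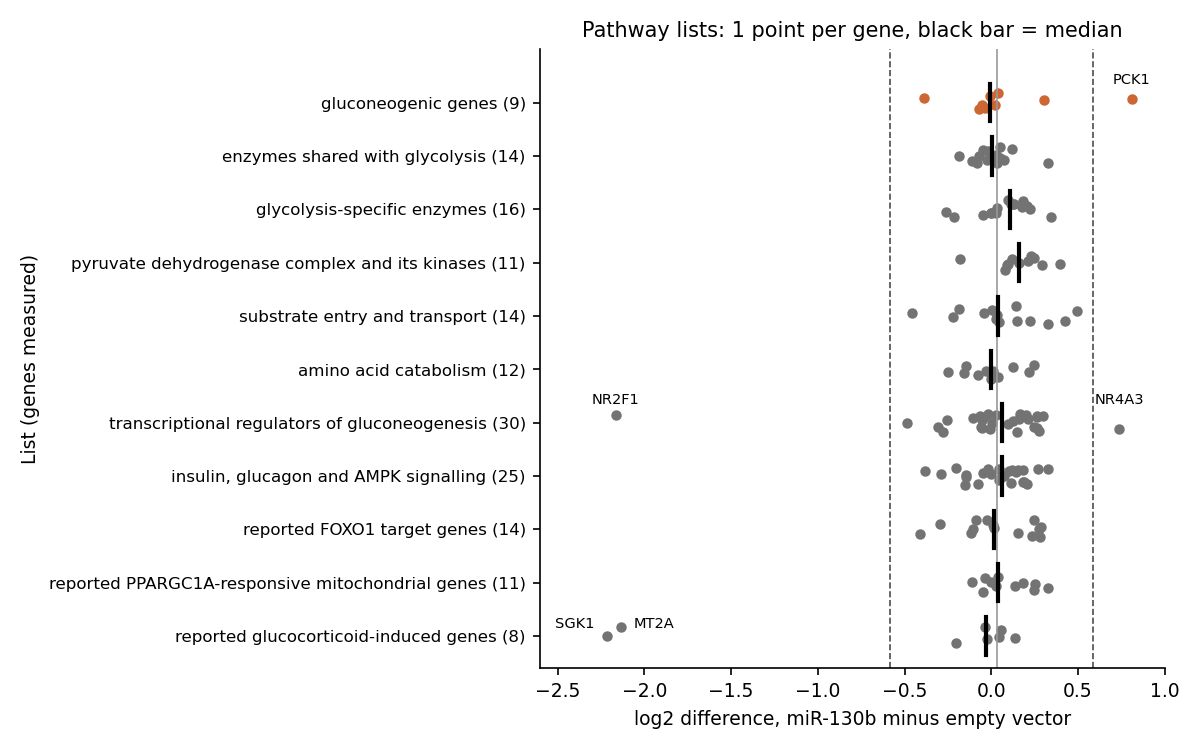
Log2 difference, miR-130b minus empty vector (horizontal axis), of each measured gene in the gluconeogenic set and in 10 pathway lists, with a black bar at each list's median, a grey line at the median of all measured genes (0.03) and dashed lines at 1.5-fold; vertical scatter within a list only separates points. PCK1, NR4A3, NR2F1, SGK1 and MT2A are the named points beyond 1.5-fold, and every other point lies between the dashed lines.

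The list of enzymes that gluconeogenesis shares with glycolysis stayed near 0. It also held MDH1, so its count and median are not of glycolytic enzymes alone. None of 14 measured passed 1.5-fold in either direction, and the median was 0.01. GAPDH, glyceraldehyde-3-phosphate dehydrogenase, read 14.4 in both arrays with a difference of -0.02, and PGK1, phosphoglycerate kinase, differed by 0.05 in its brightest probe set. ENO1, an enolase, differed by -0.11, ALDOA, an aldolase, by -0.18 and MDH1, the cytosolic malate dehydrogenase, by 0.12. ENO2, another enolase, differed by 0.32 but only touched the floor, at 4.56 with the empty vector and 4.88 with miR-130b.

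Enzymes and regulators of glycolysis, listed with the lactate dehydrogenase genes LDHA and LDHB, had a median of 0.11 over 16 measured genes. Of these, 11 were above 0, 3 below and none beyond 1.5-fold. Of all 13260 measured genes, 7440 were above 0 and 5556 below. With the mean of measured probe sets, the median of this list was 0.03. PFKFB3, which makes the activator of phosphofructokinase, read 9.01 with the empty vector and 9.36 with miR-130b, a difference of 0.35. PKM, the pyruvate kinase of proliferating cells, had -0.26 in the brightest probe set against 0.02 in the other. PKLR, the liver pyruvate kinase, differed by -0.22 in its brightest of 3, which ran up to 0.12. LDHB and LDHA, subunits of lactate dehydrogenase, differed by 0.22 and 0.03.

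The pyruvate dehydrogenase complex competes with PC for pyruvate. With its kinases and phosphatases it had the highest median of the pathway lists, 0.16 over 11 measured genes. With the mean of measured probe sets this median was 0.096. Of the 11 genes, 10 were above 0 and 1 below, where 7440 of all 13260 measured genes were above 0 and 5556 below. None passed 1.5-fold by the brightest probe set. PDP1, the phosphatase that activates the complex, read 10.4 with the empty vector and 10.8 with miR-130b in one probe set, a difference of 0.39, and differed by 0.36 in the other. PDHX, a structural subunit, differed by 0.29. PDK4 and PDK3, kinases that switch the complex off, differed by 0.25 and 0.23, and the catalytic subunits PDHA1 and PDHB by 0.09 and 0.12. The 1 gene below 0 was PDPR, the regulatory subunit of the activating phosphatase, which differed by -0.18 and, in its other measured probe set, by -0.41. By the brightest probe set, PDP1, PDHX, PDK4, PDK3 and PDK2 differed by more than the pooled SD. However, PDK2 differed by -0.02 in its other one, and PDK3 ran from -0.06 to 0.24 over 5 measured probe sets.

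Genes that bring substrate in had a median of 0.04 over 14 measured, with none past 1.5-fold. GPD1, which lets glycerol enter the route, differed by 0.49 between 4.47, below the floor, and 4.96. SLC25A12, a mitochondrial aspartate-glutamate carrier, read 6.99 with the empty vector and 7.41 with miR-130b, a difference of 0.42, with 0.47 in its other probe set. SLC25A11, the oxoglutarate carrier, differed by -0.46, with -0.13 in its other probe set. SLC2A2, the liver glucose transporter, read 8.53 and 8.86, a difference of 0.33. MPC1 and MPC2, the mitochondrial pyruvate carrier subunits, differed by 0.22 and 0.03.

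Among genes of amino acid catabolism beside TAT, none of 12 measured passed 1.5-fold, and the median was 0.00. MAT1A, the liver methionine adenosyltransferase, differed by 0.25. HPD and HGD act after TAT in tyrosine breakdown. HPD differed by 0.22, and HGD by -0.25 in its brightest probe set, with values from -0.29 to 0.36 over 4. ASL, ASS1 and CPS1 of the urea cycle differed by -0.16, 0.01 and 0.12.

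Of the transcriptional regulators, 30 were measured, with 1 at least 1.5-fold higher, 1 at least 1.5-fold lower and a median of 0.06, where 0.294% and 2.68% of all measured genes were higher and lower. With the floor at the 75th percentile of all values, 24 were left and 0 were lower. NR4A3, an orphan nuclear receptor induced by cAMP, read 8.54 with the empty vector and 9.27 with miR-130b, a difference of 0.74, and its other measured probe set differed by 0.45. NR2F1, an orphan nuclear receptor, read 5.90 with the empty vector and 3.73 with miR-130b, below the floor there, so the difference of -2.16 comes from 1 probe set whose lower value may be compressed by background. NR5A2, a liver nuclear receptor, differed by -0.49, and its 3 measured probe sets ran from -0.49 to -0.31. RXRA, the partner of many nuclear receptors, differed by -0.30, but by 0.02 in its other probe set. CEBPB and the glucocorticoid receptor gene NR3C1, the brightest of the list, differed by 0.17 and 0.16.

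In insulin, glucagon and AMPK signalling, 25 genes were measured, none passed 1.5-fold by its brightest probe set, and the median was 0.06. PRKAA1, a catalytic subunit of AMPK, which restrains gluconeogenesis when energy is low, read 7.53 with the empty vector and 7.15 with miR-130b in its brightest probe set. That is a difference of -0.38, and the other 3 measured probe sets differed by -0.63, -0.33 and -0.64, so all 4 were lower and 2 of them were beyond 1.5-fold. SIK1, a kinase that holds CREB coactivators in the cytoplasm, differed by 0.33, with -0.10 in its other probe set. GSK3B, a kinase that insulin signalling inhibits, named after its values were seen, had 0.07 in the brightest and -0.79 in the dimmest of its measured probe sets. TRIB1, a pseudokinase that lowers C/EBP proteins, differed by 0.27. PIK3R1, a regulatory subunit of PI3K, differed by -0.29 and PRKAR1A, a regulatory subunit of protein kinase A, by 0.12.

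Reported FOXO1 targets, 14 measured, had a median of 0.02 and none past 1.5-fold by the brightest probe set. BCL2L11, a pro-apoptotic BH3-only gene named after its values were seen, differed by -0.11 there, but its 5 measured probe sets ran from -0.79 to 0.12 and 2 of them were beyond 1.5-fold lower. IGFBP1, an insulin-repressed secreted protein, read 13.5 in both arrays, with a difference of -0.03. CCNG2, a cyclin of arrested cells, differed by -0.41 in its brightest probe set, with a range from -0.70 to 0.11 over 4. GADD45A, a stress protein gene, differed by -0.29 and CAT, catalase, by 0.28. TXNIP, an inhibitor of glucose uptake, had 0.29 in the brightest probe set against -0.34 in another.

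Reported PPARGC1A-responsive mitochondrial genes, 11 measured, had a median of 0.04 and none past 1.5-fold by the brightest probe set. ACADM, a dehydrogenase of fatty acid oxidation, read 10.6 with the empty vector and 10.9 with miR-130b, a difference of 0.33. CPT1A, which brings fatty acids into mitochondria, differed by 0.24, 0.40 and 0.71 in its 3 measured probe sets, and the largest came from a probe set that read 5.82 and 6.52. TFAM, a mitochondrial transcription factor, differed by 0.25 with a range from -0.10 over 3 probe sets. CYCS and ATP5F1B, of the respiratory chain and ATP synthase, differed by 0.18 and -0.04, with -0.45 in another CYCS probe set.

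Reported glucocorticoid-induced genes, 8 measured, had a median of -0.03, with 2 at least 1.5-fold lower and 0 higher, where 2.68% and 0.294% of all measured genes were. Without _x_at and _s_at probe sets, 1 of the 3 genes left was lower. SGK1, a kinase induced by glucocorticoids and by serum, read 8.50 with the empty vector and 6.28 with miR-130b, 4.65-fold lower. MT2A, a metallothionein, read 11.0 and 8.91, 4.39-fold lower. Each rests on 1 measured probe set, that of MT2A with the suffix _x_at. The other named genes were close to 0 or small, with NFKBIA at -0.20, FKBP5 at 0.14 and DUSP1 at -0.04. PCK1 and TAT are known to respond to glucocorticoids too, and they stood at 0.81 and -0.07.

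Genes with several measured probe sets allow a check within the arrays. Outside the 9 genes, 86 pathway genes had at least 2, and in 37 of them all measured probe sets had the same sign, 22 higher and 15 lower. In 4 genes (CPT1A, NR4A3, PDP1 and SLC25A12) every measured probe set was higher by more than the pooled SD, and in 2 (NR5A2 and PRKAA1) every one was lower by more than it. These 6 were singled out after their values were seen. The same shares over all genes with at least 2 measured probe sets were not computed. The counts are therefore not shown to be a trait of the pathway genes. PCK1, with 1 probe set, has no such check.

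**Figure D4:**
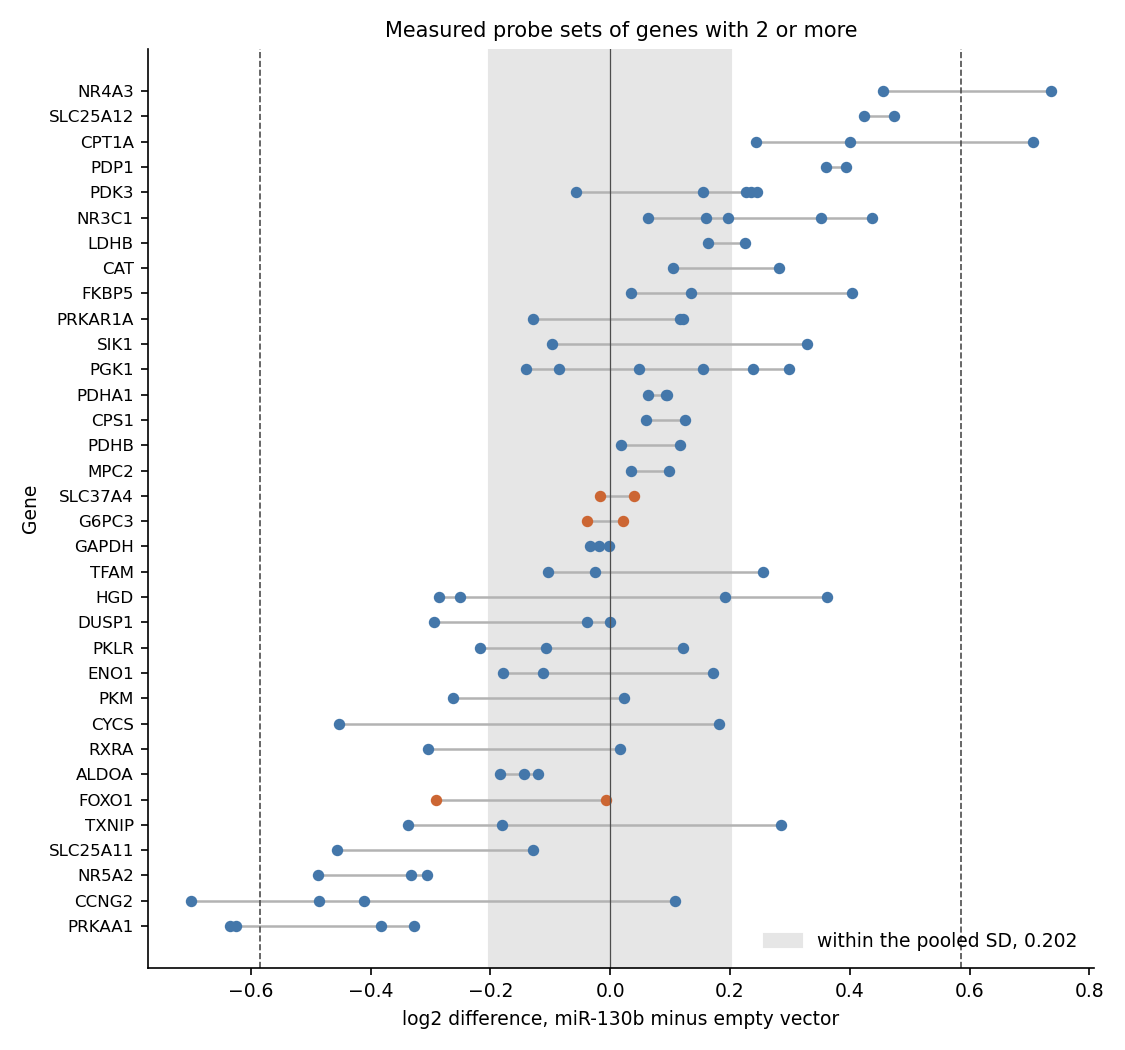
Log2 difference, miR-130b minus empty vector (horizontal axis), of each measured probe set in 34 genes that have at least 2. They are members, or pathway genes named for a large difference or for brightness, and are ordered by their median. The gluconeogenic genes G6PC3, SLC37A4 and FOXO1 are in orange, the pooled SD of 0.202 is shaded and 1.5-fold is dashed. GSK3B, BCL2L11, PDPR and PDK2, named in the text on other grounds, are not drawn. NR4A3, SLC25A12, CPT1A and PDP1 lie wholly to the right of the shading, PRKAA1 and NR5A2 wholly to its left, and G6PC3 and SLC37A4 inside it.

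Markers of other tissues were read beside PCK1, which kidney and fat also express. The summed levels given here are over every listed marker on the array, so they include those below the floor. Of 10 kidney epithelium markers, 8 were on the array and 4 were at or above the floor in both arrays, with a summed linear level of 586.9 and 679.0. LRP2, an endocytic receptor, differed by 0.43, SLC34A1 by 0.20, AQP2 by 0.19 and PAX8 by -0.03, while NPHS1, SLC12A1, SLC12A3 and CUBN were below the floor in both. Of 5 adipocyte markers, 2 were at or above the floor, CIDEC at -0.13 and PLIN1 at 0.00, with summed levels of 199.0 and 188.1, and the defining genes ADIPOQ, LEP and FABP4 were below it in both arrays. Of 6 leukocyte markers, 4 were on the array and LYZ alone reached the floor, with differences of -0.32 in its brighter measured probe set and -1.72 in the dimmer one, and summed levels of 940.2 and 766.6, and PTPRC, which all leukocytes carry, was below it. Of 9 stromal and endothelial markers, 5 reached the floor, with summed levels of 913.7 and 727.0. COL1A2 differed by -3.08, reading 7.98 with the empty vector and 4.90 with miR-130b, which is close to the floor. PECAM1 differed by 0.21, DCN by -0.08 and COL1A1 by -0.08, with COL1A1 probe sets running from -1.68 to 0.38. The part of these markers in the PCK1 value was not tested.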

How the data were processed

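The authors deposited 1 table of 54675 probe sets with a log2 expression value for each of 2 arrays. The submitters' processing notes name RMA, which corrects background, normalizes between arrays and summarises probes. Its version and settings were not given in the sources used here. Column medians over 54613 non-control probe sets were 4.88 in both arrays. Gene names came from GEO's platform annotation, with symbols updated through the RefSeq gene table, which held 41037 of the 41091 identifiers. Probe sets with several symbols (1801) or none (11721) were left out. No probe set lists a member among several symbols.

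The members and lists were chosen with earlier results of these data known. Named genes are all members, all genes of a list of 3 or fewer, otherwise the 4 with the largest absolute difference and the 2 brightest, and the 5 nearest to PCK1. Any others were chosen after their values were seen. Alternatives tried were a stricter floor (6.98, the 75th percentile) or none, the mean of probe sets, no _x_at or _s_at probe sets, loess centring (span 0.3) and 2-fold. Python 3.11.15, numpy 2.4.6, pandas 2.3.3, statsmodels 0.14.6 and matplotlib 3.10.9 were used.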

Additional observations from a re-analysis of the deposited data

How the results depend on the processing

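No paired analysis was possible because each group has 1 array. The PCK1 difference was 0.81 without a floor, under the stricter floor (75th percentile) and as a mean of probe sets, as it rests on the same probe set each time, and 0.78 after loess centring. Without _x_at and _s_at probe sets it has no value: PCK1, PC, SLC37A4, FOXO1 and TAT drop out, 4 genes are left and 0 are at least 1.5-fold higher, by gene or by probe set. At 2-fold the count of higher genes and of higher probe sets among the members was 0, as it was of higher genes without PCK1, an alternative chosen after seeing the data. No member was at least 1.5-fold lower under any alternative run. The members' median stayed between -0.04 (loess centring) and 0.01 (stricter floor, 6 genes). With that floor, 16 genes of the whole array were at least 1.5-fold higher and 192 lower of 8277, against 39 and 356 of 13260. Loess centring turned PCK2 from 0.02 to -0.01. No alternative can stand in for replicate cultures.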
